A study of Mus musculus with 6 samples.

Results

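Penk, the gene for proenkephalin, is described here in TRAMP-C2 cells, from 6 libraries of polyadenylated RNA. It was picked by its identifier, ENSMUSG00000045573, as 1 of the 54446 genes in the count table, because its RNA had been seen to fall strongly after oxaliplatin (Oxali). The difference between Oxali-treated and control cells therefore chose the gene and is given below as a description, with no test. TRAMP-C2 is a mouse prostate cancer line of C57BL/6 origin from a male, derived from the TRAMP model, in which a probasin promoter drives SV40 early genes in prostate epithelium. The line stands for 1 tumor, and all cells were kept in medium with insulin and dehydroisoandrosterone. Control cells received no drug, Oxali-treated cells received 2 µM Oxali, and cisplatin (Cispl)-treated cells received 2 µM Cispl, each for 24 h with 2 libraries per group. Both drugs are platinum compounds that form adducts on DNA. The labels do not say whether the libraries of a group came from separate cultures, so p-values measure only the spread between these libraries, which may be technical.

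Proenkephalin is the precursor of the enkephalins, opioid peptides that act on the δ and μ receptors. It enters the secretory pathway, where proteases cut it at pairs of basic residues, carboxypeptidases trim the ends, and peptidases outside the cell later destroy the released peptides. Penk is best known from neurons and the adrenal medulla, but mesenchymal and immune cells also transcribe it. Its transcription responds to factors of the CREB and AP-1 families.

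In the GENCODE M21 annotation (GRCm38) Penk is a protein-coding gene on the minus strand of chromosome 4, 4133531 to 4138819, with a body of 5289 bp and 2 transcripts. Its longest coding sequence, that of Penk-201, has 268 codons in 2 exons. A search of this coding sequence found 7 in-frame stretches that encode an enkephalin, 6 for Met-enkephalin and 1 for Leu-enkephalin, all in exon 2 between positions 4133842 and 4134354. The peptides released were not measured, and the stretches are shown as the enkephalin sequences that the gene encodes. Enkephalin codons are in capitals and the neighboring codons in lower case, 5′ to 3′ on the coding strand.
copy 1: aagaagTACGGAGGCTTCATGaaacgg
copy 2: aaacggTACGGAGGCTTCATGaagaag
copy 3: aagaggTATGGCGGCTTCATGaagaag
copy 4: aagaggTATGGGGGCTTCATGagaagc
copy 5: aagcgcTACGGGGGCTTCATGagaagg
copy 6: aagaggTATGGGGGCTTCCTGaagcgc
copy 7: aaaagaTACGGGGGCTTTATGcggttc
Copy 1 starts at codon 100 and copy 7 at codon 262. Copy 6 is the Leu-enkephalin copy. In 5 of the 7 copies, codons for 2 basic residues stand on both sides, and the exceptions are copies 4 and 7, which lack the pair after the enkephalin. The 7 copies use 6 different sequences for their 15 enkephalin bases. Reads from any copy count toward the same gene.

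The libraries held 21345312 to 24041767 expected counts, so that 3 counts, taken as the limit for a gene listed at 0, equal 0.125 to 0.141 CPM, a count divided by library size. This limit and the counting errors below cover counting error only, since reads were not molecules counted by identifier. DESeq2 was run on the 14956 genes that had at least 10 counts in 2 or more libraries. The cells carried some but not all markers of prostate epithelium. Krt19 (143 TPM in control), Cdh1 (10.9 TPM) and Krt18 (11.2 TPM) were measured, where TPM is the count divided by exon length and scaled to the same sum in every library, whereas Pbsn and Krt5 were listed at 0 in every library and Epcam had 0 to 2 expected counts. Mesenchymal markers were abundant, as Vim had 1487 and Fn1 1137 TPM in control cells. The summed level of the 10 mesenchymal markers was 6836 to 7040 TPM in control, 6119 to 6272 after Oxali and 5667 to 5952 after Cispl, a different order of the drugs from that of Penk described below, and its part in the results was not tested. The 10 did not move alike. After Oxali 3 were called lower and 2 higher, and after Cispl 5 were lower and 1 higher. Among all tested genes 9.5% were called lower and 10.7% higher after Oxali, and 12.4% and 15.7% after Cispl. Mean Col1a1 was 2400 TPM in control, 1978 after Oxali and 1808 after Cispl, whereas Vim was at 1487, 1599 and 1716 TPM. Of the neuroendocrine or neuronal markers, Insm1 was listed at 0 and Chga had at most 1 count per library, whereas Tubb3 (58.3 TPM in control), Ncam1 (25.4 TPM) and Eno2 (3.82 TPM) were measured and Syp was low (0.496 TPM). The immune marker Adgre1 was listed at 0 and Ptprc had at most 1 count, while Cd68 had 30 to 51 expected counts per library (3.85 TPM in control).

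Untreated TRAMP-C2 cells transcribed Penk at a substantial level. Control replicates 1 and 2 held 1012 and 1034 expected counts. Per exon length this was 81.1 and 80.2 TPM, where the median of the tested genes was 13.8 TPM, and Penk ranked 1936 of 14946 tested genes with an annotated length, so that 87.0% of them were lower. On the scale of normalised counts (counts divided by the DESeq2 size factor, not corrected for length) 68.0% of the 14956 tested genes were lower. Among 46 peptide precursor genes, 4 for opioid peptides and 42 for other hormones, Penk had the highest level per length in control cells. The next was Nucb1, with 60.4 and 62.2 TPM, which encodes a nucleobindin and is a hormone precursor only by its relation to Nucb2. Nucb2, the precursor of nesfatin-1, had 26.8 and 27.2 TPM, and Adm2, the gene of intermedin, had 19.8 and 16.9 TPM. The control libraries of each of these 4 genes did not overlap with those of the next in this order.

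Drug-treated cells held less Penk RNA, with the lower level after Oxali. Control replicates 1 and 2 had 1049.9 and 1019 normalised counts, against 431 and 412 in Oxali replicates 1 and 2, and 835 and 755 in Cispl replicates 1 and 2. The 3 groups did not overlap, with control highest, Cispl between and Oxali lowest. The means were 1035 ± 21.7 (SD, n = 2) in control, 421 ± 12.9 in Oxali-treated and 795 ± 56.5 in Cispl-treated cells. Counting error of the expected counts was 3.11% to 4.98% per library. In bulk RNA, fewer cells that transcribe a gene and less RNA per cell cannot be told apart.

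**Figure D1:**
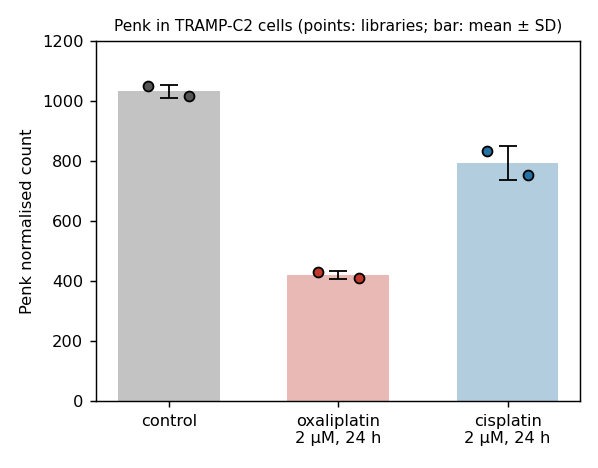
Normalised count of Penk (y axis, from 0) in control, oxaliplatin and cisplatin cells; points are libraries, bars are means and error bars are SD over 2 libraries. The Oxali libraries at 431 and 412 lie below both Cispl libraries, which lie below both control libraries.

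For Oxali against control, the contrast on which the gene was picked, the DESeq2 log2 fold change was -1.29 ± 0.11 (SE), which puts Penk at 40.8% of the control level. Among all tested genes 32.6% were lower in Oxali-treated cells with no overlap between libraries, 9.5% were called lower, and 0.214% were called lower with a log2 fold change of -1 or less. Leaving out any 1 library gave values from -1.33 to -1.26.

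For Cispl against control, Penk fell by 0.38 ± 0.10 (SE) on the log2 scale, to 76.9% of the control level, with a 95% interval of -0.58 to -0.17 (DESeq2 adjusted p = 0.00170). Both Cispl libraries were below both control libraries. Among all tested genes 12.4% were called lower in this contrast, and 34.7% were lower with no overlap. Penk was picked on its fall after Oxali, not on its values after Cispl. The control libraries entered that choice, and earlier results of these data were known, so this p is not independent of it. The call was lost when control replicate 1 (log2 fold change -0.36, DESeq2 adjusted p = 0.0746) or Cispl replicate 2 (log2 fold change -0.31, DESeq2 adjusted p = 0.154) was left out. The adjusted p ranged from 3.45e-04 to 0.154 over 13 alternatives, 11 of which kept the call. An exact permutation test of 2 against 2 libraries cannot go below a two-sided p of 0.333.

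At the same nominal dose and time, Penk in Oxali-treated cells was at 53.0% of its level in Cispl-treated cells, or -0.92 ± 0.11 (SE) as a log2 fold change. The libraries did not overlap, as was so for 34.5% of all tested genes in this direction. This is given without a test because the Oxali libraries chose the gene. The drugs share platinum with ammine or amine ligands and differ in these ligands and in the leaving groups, as Oxali carries diaminocyclohexane and oxalate and Cispl carries ammonia and chloride. Whether the doses were equal in effect on the cells was not measured here.

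To place these values, Penk was set beside the tested genes whose mean normalised count over all 6 libraries lay between 600.3 and 937, around its own mean of 750.3. There were 1557 such genes, and their median SE for Oxali against control, 0.11, was close to that of Penk. After Oxali their median log2 fold change was -0.01, and 5% of them lay below -0.40. A single gene of the 1557 had a lower value than Penk. This was Vcp-rs, a processed pseudogene at -1.46, whose control libraries differed widely (848 and 1471 normalised counts) and whose reads cannot be cleanly separated from those of its parent gene Vcp. Without Vcp-rs and the mitochondrial gene mt-Co3, a pair left out after the values were seen, the nearest gene to Penk stood at -0.94.

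After Cispl the place of Penk in this set was less extreme. Penk was picked for its fall after Oxali, so its low place in the contrasts with Oxali follows in part from that choice. The genes of similar count had a median log2 fold change of -1.03e-04, 16.7% were called lower and 16.5% higher, and 119 of them, or 7.64%, had lower values than Penk. This share was 4.95% without Cispl replicate 1 and 13.2% without Cispl replicate 2. Those with the 5 lowest values were mt-Co3, Plxna4, Trappc9, H2afx and Atrnl1. Plxna4, which encodes a semaphorin co-receptor, went from 1117 and 1220 normalised counts in control to 410 and 432 in Cispl replicates 1 and 2, and had 758 and 727 after Oxali, so its order of the drugs was the reverse of that of Penk. The mt-Co3 value rests on Cispl replicate 2, where 2.31 normalised counts stood against 752 in Cispl replicate 1. Between the drugs, 3 of the 1557 genes were further below Cispl in Oxali-treated cells than Penk. Arrdc3, an arrestin-domain gene, differed by -1.21, and it was higher than control after both drugs. Trib3, a pseudokinase gene of the stress response, and Slc6a9, a glycine transporter gene, differed by -0.99 and -0.93. Trib3 had 898 and 810 normalised counts in control, 537 and 504 after Oxali and 1037 and 1025 after Cispl.

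**Figure D2:**
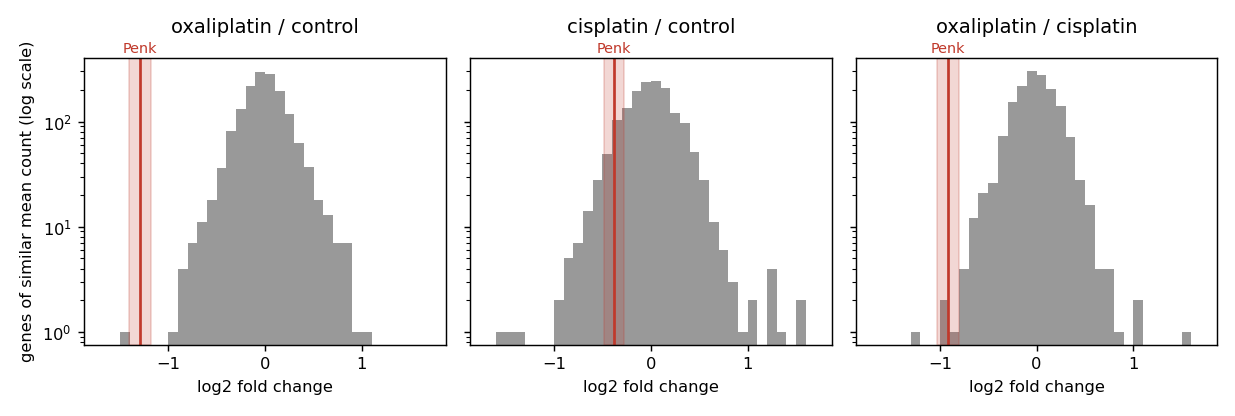
Histograms of log2 fold changes (x axis) of the 1557 tested genes with a mean normalised count of 600.3 to 937, close to that of Penk, with the number of genes on a log y axis, for each of the 3 contrasts; the red line and band are Penk ± SE. Penk lies at the lower edge for Oxali against control (-1.29) and for Oxali against Cispl (-0.92), but within the main body for Cispl against control (-0.38). The gene was picked for its fall after Oxali, so its place at the edge follows in part from that choice.

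A second set held the 1012 tested genes with a body of 4233 to 6611 bp, close to the length of Penk. After Oxali their median log2 fold change was 0.01, and 4 of them had a lower value than Penk. After Cispl the median was 0.03, 8.498% were called lower and 18.9% higher, and 146 of them, or 14.4%, had lower values than Penk. This set was not matched on count, and its median SE after Cispl was 0.16 against 0.10 for Penk.

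The genes whose pattern over the 6 libraries was most like that of Penk were then listed, among 10731 genes with a mean of at least 100 normalised counts. Likeness was the root mean square difference of log2(normalised count + 1), each gene centred on its mean. These genes were found on the same libraries by their likeness, so their values are a description. The nearest was Cth, the gene of cystathionine gamma-lyase, an enzyme that makes cysteine, with a difference of 0.0775 against a median of 0.562 over all genes compared. Cth had 453 and 485 normalised counts in control, 199 and 207 after Oxali, and 423 and 363 after Cispl. Aldh1l2, a mitochondrial enzyme of folate metabolism, followed with a difference of 0.122. It had 3449 and 3897 normalised counts in control, 1786 and 1692 after Oxali, and 2879 and 2836 after Cispl.

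The other genes on this list were Cd1d1 (an antigen-presenting molecule for lipids, 0.139), Slc40a1 (the iron exporter ferroportin, 0.150), Ypel2 (0.152), Pck2 (the mitochondrial phosphoenolpyruvate carboxykinase, 0.174), Hspa2 (a heat shock protein, 0.182), Kdelr3 (a receptor that returns proteins to the endoplasmic reticulum, 0.203), Pycr1 (an enzyme of proline synthesis, 0.204) and P3h1 (a collagen prolyl hydroxylase, 0.209). In each of the 10 the fall after Oxali was smaller than that of Penk, with log2 fold changes from -1.21 for Cth to -0.80 for Pycr1. Penk was picked for a strong fall after Oxali, so this order follows in part from that choice. After Cispl they ranged from -0.46 ± 0.08 (SE) for Kdelr3 to -0.19 ± 0.11 for Pycr1. The SE reached 0.25 in Cd1d1, at -0.34, so a fall after Cispl is not shown for each of them. Pearson's r with Penk over the 6 libraries was 0.963 to 0.997 in these genes. By r alone, which ignores the size of a change, 584 of the genes compared, or 5.44%, had r above 0.9, and only 2 of its 10 highest were on this list.

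**Figure D3:**
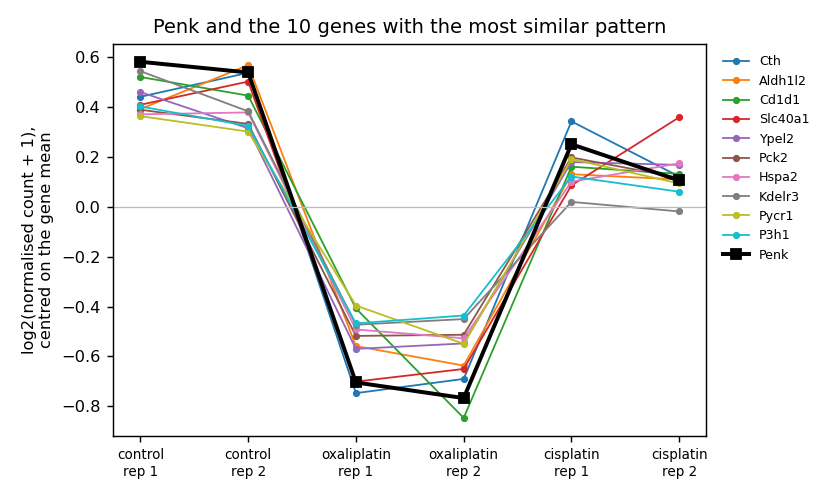
Log2(normalised count + 1) centred on the mean of each gene (y axis) in the 6 libraries (x axis) for Penk, in black, and the 10 genes closest to it in pattern; lines join the points of a gene to guide the eye. All 11 genes are highest in control and lowest in both Oxali libraries.

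Penk was the sole opioid precursor gene with counts. Pdyn, Pomc and Pnoc, which encode the precursors of dynorphins, of β-endorphin and of nociceptin, were listed at 0 in all 6 libraries, which allows up to 0.125 to 0.141 CPM. The classical opioid receptor genes Oprm1, Oprd1 and Oprk1 had at most 2 expected counts in any library, and the nociceptin receptor gene Oprl1 at most 3, so none passed the filter and no change could be detected at this depth.

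Ogfr encodes the opioid growth factor receptor, a nuclear-associated protein that binds Met-enkephalin. It was present at 79.0 and 73.4 TPM in control cells. Normalised counts were 1615 and 1473 in control, 1592 and 1676 after Oxali, and 1906 and 1927 after Cispl. Both Cispl libraries were above all others. Ogfr rose after Cispl by 0.31 ± 0.08 (SE) on the log2 scale, where 15.7% of all tested genes were called higher (DESeq2 adjusted p = 3.73e-04), a call that was lost without control replicate 2 (DESeq2 adjusted p = 0.0617), and its log2 fold change after Oxali was 0.08 ± 0.08 (DESeq2 adjusted p = 0.502). The related gene Ogfrl1 was low, at 101 and 74.9 normalised counts in control, 47.8 and 44.0 after Oxali, and 59.8 and 70.6 after Cispl. Its log2 fold change after Oxali was -0.93 ± 0.35 (DESeq2 adjusted p = 0.0357), and the call was lost in 4 of 8 alternatives that gave an adjusted p, such as leaving out Cispl replicate 1 or 2 (DESeq2 adjusted p = 0.116 and 0.124).

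Of 12 genes for enzymes tied to proenkephalin processing, 9 were tested. The neuroendocrine convertase gene Pcsk2 was listed at 0 and Pcsk1 had 1 count in a single library, whereas Furin and Pcsk7, convertases of most cell types, had 17.5 and 16.8 TPM and about 20.2 TPM (the mean) in control. Cpe, the carboxypeptidase that trims the basic residues, was the most abundant of them at 484 and 492 TPM in control cells, and its normalised counts lay between 9794 and 10358 in all 6 libraries. After Oxali 1 of the 9 was called, lower, where 20.2% of all tested genes were called in either direction. After Cispl 2 were lower and 1 higher, where 28.1% of all tested genes were called. Ctsl encodes cathepsin L, which cuts proenkephalin in secretory vesicles. It had 5253 and 5188 normalised counts in control, 5477 and 5629 after Oxali, and 7235 and 7046 after Cispl, a log2 fold change of 0.45 ± 0.04 after Cispl (DESeq2 adjusted p = 4.59e-23), a call kept in 13 of 13 alternatives. Pam, which amidates peptide ends, fell after Oxali by 0.21 ± 0.06 (DESeq2 adjusted p = 0.00629) and after Cispl by 0.25 ± 0.06 (DESeq2 adjusted p = 6.51e-04), both on a log2 scale. Without control replicate 2 these adjusted p values were 0.216 and 0.0756. The carboxypeptidase gene Cpd fell after Cispl by 0.29 ± 0.08 (DESeq2 adjusted p = 0.00102), and the call was lost without control replicate 2 (0.0799) or Cispl replicate 1 (0.0927). Between the drugs Ctsl, Rnpep and Furin were called lower and Cpd higher in Oxali-treated cells, where 19.9% of all tested genes were called and 8.62% were higher, and of these only the call of Ctsl held in all 13 alternatives.

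RNA for proteins of dense-core granules was low. Of 11 such genes only Ptprn passed the filter, Vgf had 5 to 14 expected counts per library, and Chga, Chgb, Scg2, Scg3 and Scg5 had 0 to 5 expected counts per library. Ptprn encodes a membrane protein of these granules and was named after its values were seen. It had 1039.8 and 920.2 normalised counts in control, 742 and 754 after Oxali, and 928 and 879.98 after Cispl. Its log2 fold change was -0.39 ± 0.10 after Oxali (DESeq2 adjusted p = 0.00140) and -0.12 ± 0.10 after Cispl (DESeq2 adjusted p = 0.431). The call after Oxali was lost without control replicate 1 (0.128), Oxali replicate 1 (0.0799) or Oxali replicate 2 (0.0571).

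All 7 genes for peptidases that can break down enkephalins passed the count filter. Ace and Enpep, both with low counts, were given no adjusted p in any contrast and so could not be called. After Oxali 3 were called lower (9.5% of all tested genes were), and after Cispl 2 were called lower (12.4% of all tested genes). The median log2 fold changes of the 7 were -0.19 and -0.15, where those of all tested genes were -0.0028 and -0.00081. The median after Oxali is the value of Ace itself (-0.19 ± 0.78, SE), which had 8 to 26 expected counts per library, so it does not show a shift of the list. Dpp3, known as an enkephalinase of the cytosol, had 3881 and 3716 normalised counts in control, 3184 and 3089 after Oxali, and 3639 and 3781 after Cispl. It fell after Oxali by 0.28 ± 0.06 (SE; log2 scale, DESeq2 adjusted p = 8.76e-06), a call kept in 13 of 13 alternatives. Lnpep, a membrane aminopeptidase, fell after Cispl by 0.32 ± 0.06 (DESeq2 adjusted p = 4.66e-06), likewise kept in 13 of 13. Its call after Oxali (log2 fold change -0.16 ± 0.06, DESeq2 adjusted p = 0.0419), that of Anpep (aminopeptidase N) after Oxali (-0.36 ± 0.13, DESeq2 adjusted p = 0.0207) and that of Npepps after Cispl (-0.15 ± 0.05, DESeq2 adjusted p = 0.0201) were each lost in 6 or 7 of 13 alternatives, with adjusted p values of up to 0.467, 0.358 and 0.285 when control replicate 2 was left out. Mme, the gene of neprilysin, had 292 and 296 normalised counts in control, 294 and 308 after Oxali and 234 and 216 after Cispl. Oxali against Cispl gave a log2 difference of 0.42 ± 0.17 (DESeq2 adjusted p = 0.0463), and 9 of 13 alternatives lost that call.

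**Figure D4:**
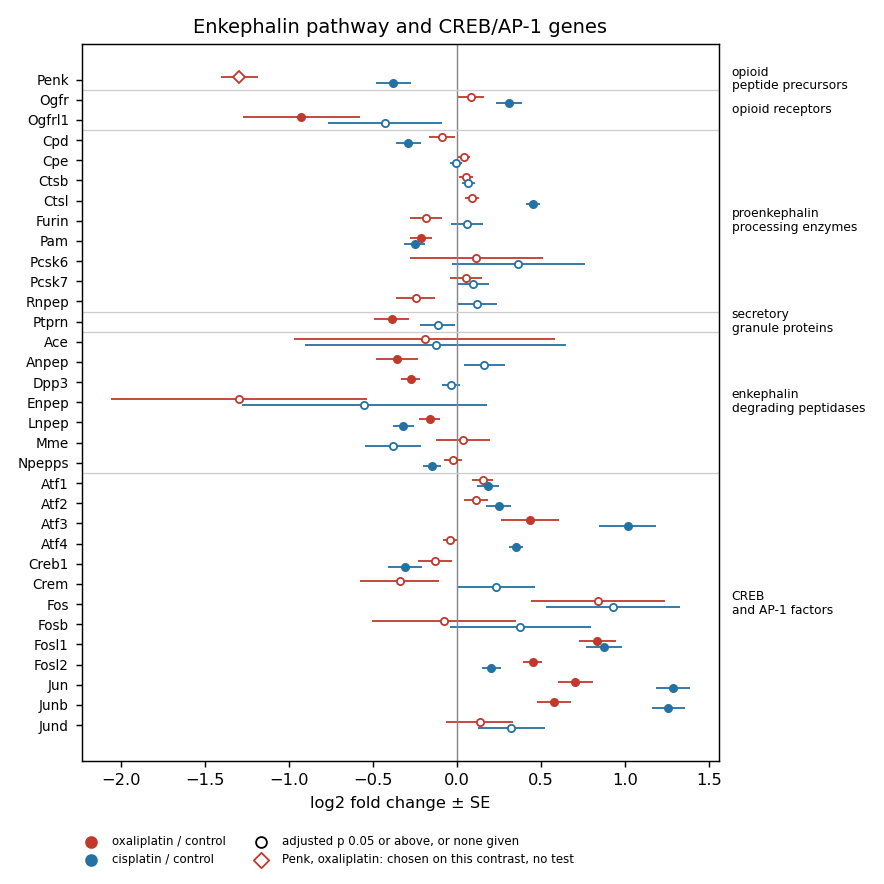
DESeq2 log2 fold change ± SE (x axis) against control for the tested genes of the enkephalin pathway and the CREB and AP-1 families (y axis), red for Oxali and blue for Cispl; filled points have an adjusted p under 0.05, open circles do not, and the open diamond is Penk after Oxali, which was not tested. Penk stands at -1.29 and -0.38, while Ctsl (0.45), Jun (1.29) and Junb (1.26) lie above 0 after Cispl.

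Of 42 other peptide hormone precursor genes, 13 were tested. After Oxali, Adm, Calcb, Cck, Edn2, Nmb and Npff were given no adjusted p and so could not be called. After Cispl this held for Calcb. After Oxali 3 were called lower and 1 higher, where 9.5% and 10.7% of all tested genes were, and after Cispl 1 was lower and 2 were higher, where 12.4% and 15.7% were. Leaving out 1 library left 1 to 3 calls in all after Oxali and 1 after Cispl. Nucb2 had 495 and 494 normalised counts in control, 329 and 292 after Oxali, and 421 and 382 after Cispl, the same order of groups as Penk. It fell after Oxali by 0.67 ± 0.14 (SE; DESeq2 adjusted p = 3.73e-05), whereas its log2 fold change of -0.30 ± 0.14 after Cispl did not pass (DESeq2 adjusted p = 0.0901). Adm2 had 203 and 170 normalised counts in control, 127 and 114 after Oxali, and 254 and 211 after Cispl, which is -0.63 ± 0.23 on the log2 scale after Oxali (DESeq2 adjusted p = 0.0239). This call was lost in 7 of 13 alternatives, among them each that left out a library, with the adjusted p at 0.308 without control replicate 1. Edn1, the gene of the vasoconstrictor endothelin-1, moved the other way, from 64.3 and 74.9 normalised counts in control to 184 and 145 after Oxali and 183 and 212 after Cispl. Its log2 fold changes were 1.24 ± 0.26 (DESeq2 adjusted p = 2.27e-05) and 1.504 ± 0.26 (DESeq2 adjusted p = 9.44e-08). Cck rose after Cispl from low counts (8.30 and 12.8 to 30.4 and 30.7 normalised counts, log2 difference 1.53 ± 0.61, DESeq2 adjusted p = 0.0406), and Nucb1, named after its values were seen, fell after both drugs by 0.17 ± 0.05 (DESeq2 adjusted p = 0.00430) and 0.15 ± 0.05 (DESeq2 adjusted p = 0.0159). After Oxali Cck had 29.7 and 22.5 normalised counts, a log2 fold change of 1.31 ± 0.61 for which no adjusted p was given. The call of Cck after Cispl was lost with no filter on low counts (DESeq2 adjusted p = 0.0621), and only 4 of the 12 alternatives that tested it gave an adjusted p. The call of Nucb1 after Oxali was lost without any 1 of the control or Oxali libraries (up to 0.211, without Oxali replicate 2), and that after Cispl was lost in 8 of 13 alternatives, among them each that left out a library (up to 0.245, without Cispl replicate 2). Stc2, the gene of stanniocalcin-2, was lower after Oxali than after Cispl (log2 scale -1.03 ± 0.30, DESeq2 adjusted p = 0.00396).

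**Figure D5:**
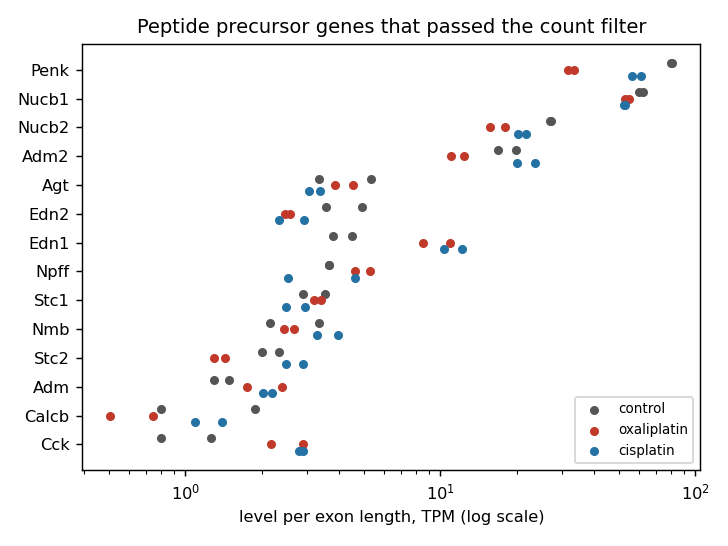
Level per exon length in TPM (log x axis) of the 14 peptide precursor genes that passed the count filter (y axis, ordered by their control mean); each point is a library, grey for control, red for Oxali and blue for Cispl. Penk is highest in control (81.1 and 80.2 TPM) and falls below Nucb1 in both Oxali libraries (33.4 and 31.6 TPM).

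Most CREB and AP-1 genes that passed the test went up, not down. Of 13 such genes, all tested, DESeq2 called 5 higher and 0 lower after Oxali (7 higher and 0 lower at an unadjusted p under 0.05 and also in edgeR) and 8 higher and 1 lower after Cispl, with median log2 fold changes of 0.15 and 0.35. Among all tested genes 10.7% were called higher and 9.5% lower after Oxali, and 15.7% higher and 12.4% lower after Cispl. Jun had 626 and 551 normalised counts in control, 940.5 and 976 after Oxali, and 1393 and 1474 after Cispl, and Junb followed the same order. The log2 fold changes of Junb were 0.58 ± 0.10 (SE; DESeq2 adjusted p = 1.34e-07) and 1.26 ± 0.10 (DESeq2 adjusted p = 1.90e-35). Fosl1 rose by 0.84 ± 0.11 (DESeq2 adjusted p = 7.42e-13) and 0.88 ± 0.11 (DESeq2 adjusted p = 3.47e-14), and Atf3 rose after Cispl by 1.017 ± 0.17 (DESeq2 adjusted p = 3.70e-08). Creb1, named after its values were seen, was the gene called lower after Cispl, at -0.31 ± 0.10 on the log2 scale (DESeq2 adjusted p = 0.00947), a call lost without control replicate 2 (0.253), Cispl replicate 1 (0.0985) or Cispl replicate 2 (0.164). A further list of 14 factors held NF-κB subunits, p53, nuclear factor I genes, the glucocorticoid receptor and the p300 and CBP acetyltransferases. Of these 13 were tested, with 5 called higher and 0 lower after Oxali (6 and 0 at an unadjusted p under 0.05 and in edgeR) and 4 higher and 3 lower after Cispl, to be read against the same shares of all tested genes. Nfkb2, an NF-κB subunit gene, rose by 0.55 ± 0.06 after Oxali (DESeq2 adjusted p = 1.95e-16) and by 0.80 ± 0.06 after Cispl (DESeq2 adjusted p = 1.98e-35). Relb, another subunit, rose by 0.72 ± 0.14 after Cispl (DESeq2 adjusted p = 2.99e-06) and by 0.51 ± 0.14 after Oxali (DESeq2 adjusted p = 0.00220), the latter lost when any control or Oxali library was left out (up to 0.145, without Oxali replicate 1). RNA levels of a factor do not measure its activity.

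Around Penk on chromosome 4, the 3 nearest tested genes on each side were examined. On the side of lower coordinates they were Gm11808 (159935 bp away), Chchd7 (182484 bp) and Plag1 (195107 bp), and on the other side Impad1 (623664 bp), Fam110b (1505270 bp) and Ubxn2b (2052278 bp). Plag1, a zinc finger transcription factor gene, had 309 and 404 normalised counts in control, 242 and 249.7 after Oxali, and 209 and 202 after Cispl. Its log2 fold change was -0.54 ± 0.19 (SE) after Oxali (DESeq2 adjusted p = 0.0202) and -0.80 ± 0.19 after Cispl (DESeq2 adjusted p = 2.03e-04), and the difference between the drugs did not pass (log2 fold change 0.26, DESeq2 adjusted p = 0.355). Without control replicate 2 these calls against control were lost (0.437 and 0.0758), and that after Oxali was lost in 6 of 13 alternatives. Impad1, the gene of a Golgi-resident phosphatase, was called lower after Oxali (log2 fold change -0.31 ± 0.05, DESeq2 adjusted p = 6.33e-08), a call kept in 13 of 13 alternatives, and stood at -0.21 ± 0.05 after Cispl (DESeq2 adjusted p = 4.33e-04), a call lost without control replicate 2 (0.0639). Ubxn2b was called lower after Cispl (log2 fold change -0.54 ± 0.15, DESeq2 adjusted p = 0.00229), Gm11808 was called higher after Cispl (0.15 ± 0.05, DESeq2 adjusted p = 0.00534), and Chchd7 and Fam110b were not called. The call of Ubxn2b was lost without control replicate 2 (0.134), Cispl replicate 1 (0.110) or Cispl replicate 2 (0.0575), and that of Gm11808 in 4 of 13 alternatives: total-count scaling (0.0768) and leaving out control replicate 1 (0.134), Cispl replicate 1 (0.128) or Cispl replicate 2 (0.111). A noncoding gene on the plus strand, A830012C17Rik (4138321 to 4188703), overlaps the 5′ end of Penk. It had 2.97 to 12.4 normalised counts per library and was not tested, and since the use of strand in counting is not given in the sources used here, reads in the overlap cannot be assigned with certainty.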

How the data were processed

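Gene expression was measured by poly(A) RNA-seq (stranded mRNA kit per the labels) in 2 control, 2 Oxali and 2 Cispl libraries of TRAMP-C2 cells, grouped by the sample labels. The table deposited by the authors gives an expected count for each gene and library, unscaled. The submitters' processing notes name STAR (2.5.3a), RSEM (1.3.0) and GRCm38.p6; the study's methods describe another counter for in vitro RNA-seq. RSEM divides reads that match several genes, and 7977 to 8235 values per library were not whole. Symbols, positions and exon lengths came from GENCODE M21 (54409 of 54446 identifiers matched).

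Expected counts were rounded, and the 14956 genes that reached 10 counts in 2 or more libraries were fitted with DESeq2 (1.42.0, R 4.3.3): 1 fit of 6 libraries, group as factor, Wald tests, two-sided, Benjamini-Hochberg adjustment per contrast, threshold 0.05, independent filtering at 0.1. No adjusted p was given to 2900 of the tested genes for Oxali against control, 1740 for Cispl against control and 2900 between the drugs. These genes count as tested and not called in the shares given. TPM were computed here from the deposited expected counts and the summed length of annotated exons, which approximates transcript length. Alternatives were edgeR (4.0.16), TMM and total-count scaling, other filters, a replicate block, the 4 libraries compared alone, and leaving out each library. The fits were tested on simulated data.

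The gene, its lists and the tests were chosen with earlier results of these data known. Named genes were called members of the enkephalin lists (receptors, processing enzymes, peptidases), called members of other lists with an absolute log2 fold change of at least 0.5, the 10 genes most like Penk, its 3 nearest tested neighbors per side, and the at most 5 genes of similar count below it in each contrast. Other conditions named in the design text were not analysed here, and some marker genes are not reported here.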

Additional observations from a re-analysis of the deposited data

How the results depend on the processing

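The direction of Penk was the same under every alternative run. Its change after Cispl kept its call in 11 of 13, and leaving out 1 library gave log2 fold changes from -0.45 to -0.31, of which -0.36 (without control replicate 1) and -0.31 (without Cispl replicate 2) did not pass. Between the drugs, leaving out 1 library gave -0.99 to -0.84. Among all 14956 tested genes, 20.2% were called after Oxali, 28.1% after Cispl and 19.9% between the drugs, with all 6 libraries. The list counts that follow are to be read against these shares. With 1 library left out, the share over all tested genes is not given. Lower list counts in those fits therefore cannot be told apart from fewer calls over all genes. Over the 58 tested list genes, 20 were called after Oxali, 25 after Cispl and 26 between the drugs; leaving out 1 library gave 7 to 12, 16 to 20 and 8 to 21. The share of genes of similar count with lower values than Penk was 0.0642% after Oxali and 7.64% after Cispl; it was 9.27% after Cispl with genes within 2-fold, and leaving out 1 library gave 0.0% to 0.0642% and 4.95% to 13.2%. With the replicate number as a block, Penk changed by -0.38 after Cispl (DESeq2 adjusted p = 0.0196), and 11, 20 and 16 list genes were called. Over all tested genes the block called 1958, 2833 and 1861 and edgeR 4618, 6112 and 4773. DESeq2 without the block called 3028, 4203 and 2977 of the 14956 genes. The labels do not say that a number marks a shared culture or day. Differences between replicates 1 and 2 correlated across 10731 genes at 0.0715 (control and Oxali), -0.0477 (control and Cispl) and -0.191 (Oxali and Cispl). With 1 difference per group, these values cannot show whether libraries of the same number shared a culture or day. Total-count scaling moved the median gene by -0.01 after Oxali and -0.05 after Cispl on the log2 scale.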
